A study of Homo sapiens with 30 samples.

Results

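The sites described here are all positions of the deposited table of editing shares that lie in annotated exons of ADAR or ADARB1, the genes of the deaminases ADAR1 and ADAR2. There were 185 such sites among 382978 listed positions, 163 in ADAR (ENSG00000160710.16, chromosome 1, minus strand) and 22 in ADARB1 (ENSG00000197381.15, chromosome 21, plus strand). The deaminase domain, which the transfected fusions carry, was taken to begin 170 residues before the substituted glutamate that the labels name, at codon 838 of ADAR and codon 318 of ADARB1. In ADAR 21 sites lay in this part, 44 in the rest of the coding sequence, 98 in the 3′ UTR and 0 in the 5′ UTR. In ADARB1 the numbers were 9, 12, 0 and 1. Per 100 adenosines of the part, ADAR had 15.0 listed sites in the 3′ UTR, 6.58 in the domain and 6.07 in the rest of the coding sequence. ADARB1 had 3.06 in the domain and 5.80 in the rest, where 1 of the 12 listed positions is not an adenosine. A 3′ UTR belongs to the cell's own message and the domain is shared with a construct, so ADAR allowed a comparison of the 2 kinds of site and ADARB1, with 0 listed 3′ UTR sites, did not.

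RNA of the human embryonic kidney line HEK 293T was sequenced, harvested 60 h after transfection, and the table lists a share of reads per position and library. Its headers do not name the base counted, and the share is read here as reads with G at adenosines of the message. In 4 libraries full-length ADAR2 was expressed, as wild type or E488Q, each with and without a GluR2 adRNA (a guide RNA that recruits the enzyme). In 16 libraries MCP, a phage coat protein that holds on to MS2 RNA hairpins, carried the deaminase domain (DD) of either enzyme. These fusions were wild type or had glutamine in place of the glutamate (E1008Q in ADAR1 and E488Q in ADAR2, both called E-to-Q here), with a nuclear localisation signal (NLS) or nuclear export signal (NES), and with or without an MS2 adRNA. In 2 libraries Cas13b, an RNA-guided RNA-binding protein, was fused to ADAR2 DD (E488Q), with or without a Cas13b gRNA. Controls were a GFP transfection, each of the 3 guides alone, and untransfected cells. Of the untransfected cells runs 2, 3 and 4 were used, taken here as repeats of 1 library. Each condition had 1 library, so every test below measures the spread among libraries of different conditions and not among repeats of 1 condition. The constructs' own sequences are not given in the labels, and a read from a construct cannot be told apart here from a read of the cell's message.

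ADAR enzymes convert adenosine in double-stranded RNA to inosine, which is read as G. ADAR1 and ADAR2 share a C-terminal deaminase domain that follows their double-stranded RNA-binding domains, and the substituted glutamate lies in the loop that flips the target base out of the helix. ADAR2 is known to edit its own pre-mRNA in an intron, which the exonic sites here do not cover. Inverted repeats in 3′ UTRs are known for dense editing by both enzymes.

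At ADAR the 7 control columns lay close to 0, and at ADARB1 several of them did not. The mean share over the 163 ADAR sites was between 0.0728% and 0.134% in the controls, and the highest single value was 2.38%. At ADARB1 18 of 22 sites were above 5% in untransfected run 3 and 17 of 22 in the GFP library, with means of 12.2% and 14.3%, while all 22 were listed at 0 in untransfected run 2. Untransfected run 4 had 2 sites above 5%, with a highest share of 79.5%, and the 3 guide-only libraries had 3 to 4 such sites, with highest shares of 83.1% to 92.5%. Among all 382978 positions, those above 20% in a control column and under 2% in run 2 were 3 in run 3, 5 in GFP and 1 in run 4, and every one of them was in ADARB1. In the guide-only libraries 3 of 4 or 3 of 5 such positions were in ADARB1. Where these reads came from was not tested. Untransfected runs 2, 3 and 4 are taken here as technical repeats of 1 library, yet they differed at ADARB1. The ADARB1 shares of control columns are therefore not read here as editing. Below, values of run 3 and GFP stand beside part of the ADARB1 shares, chiefly those of the full-length libraries. ADARB1 shares given without them were not set against the control signal. Calls did not change in number when run 3 was left out. Depth is unknown, and a share listed at 0 may be a position with few or no reads.

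Windows of 10 bases to either side of the sites on which the comparisons turn are shown first, from the GENCODE release 29 transcripts (GRCh38), 5′ to 3′ on the message, with the listed base in capitals. The first 4 lie in the 3′ UTR of ADAR, the fifth is the predicted pairing partner of the fourth, the next 2 are the ADAR coding sites with the highest mean share outside and inside the domain, and the last 3 are ADARB1 coding sites. Sites of the 3′ UTR are named below by their GRCh38 position, and coding sites by the residue change that a G would cause.
ADAR 3′ UTR, chr1:154583315-154583335, minus strand: gttggcttttAgagtgttggt
ADAR 3′ UTR, chr1:154582917-154582937, minus strand: agaacaccaaAgcatcccaag
ADAR 3′ UTR, chr1:154583120-154583140, minus strand: cctttagatgAcagaccttca
ADAR 3′ UTR hairpin, chr1:154582761-154582781, minus strand: aaggcagcgcAgcccctctcc
Its partner, chr1:154582861-154582881, minus strand: ggaagaggccTgctccctggc
ADAR Q218Q, chr1:154601978-154601998, minus strand: gtcatagccaAggagccccaa
ADAR *1227W, chr1:154584797-154584817, minus strand: tgcccagtatAgtatgctcca
ADARB1 Q303R, chr21:45176599-45176619, plus strand: cacttggatcAgacgccatct
ADARB1 K618R, chr21:45220931-45220951, plus strand: acgactgggaAggatgagctg
ADARB1 L648L, chr21:45222025-45222045, plus strand: cccacttactAcgctccaaga

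At ADAR, fusions of ADAR1 gave higher shares than fusions of ADAR2 along the whole message. A call in a library required an adjusted p below 0.01 in the authors' deposited table and a share above the untransfected mean. All 163 ADAR sites were called in at least 1 of the 22 deaminase libraries, which the selection of the list makes nearly certain (100% of all positions), and 7 of 163 were called in 11 or more, against 6.63% of all positions. In the MCP-ADAR1 libraries without and with MS2 adRNA, calls in ADAR numbered 85 and 74 for E1008Q-NES (59.2% and 51.1% of all positions called), 47 and 40 for wild-type NES (30.3% and 26.4%), 19 and 25 for E1008Q-NLS (23.5% and 28.9%), and 4 and 8 for wild-type NLS (5.35% and 7.45%). In the same order the MCP-ADAR2 libraries had 16 and 14 for E488Q-NES (9.21% and 11.2%), 5 and 9 for wild-type NES (2.48% and 5.29%), 12 and 14 for E488Q-NLS (7.32% and 9.94%), and 0 and 0 for wild-type NLS (0.982% and 1.24%). The medians were 32.5 calls with ADAR1 and 10.5 with ADAR2. Full-length ADAR2 without and with guide had 1 and 2 calls as wild type (1.50% and 4.85% of all positions) and 14 and 70 as E488Q (6.72% and 32.7%). Cas13b-ADAR2 had 46 without and 21 with gRNA (29.5% and 12.9%). No control column had a call in ADAR.

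**Figure D1:**
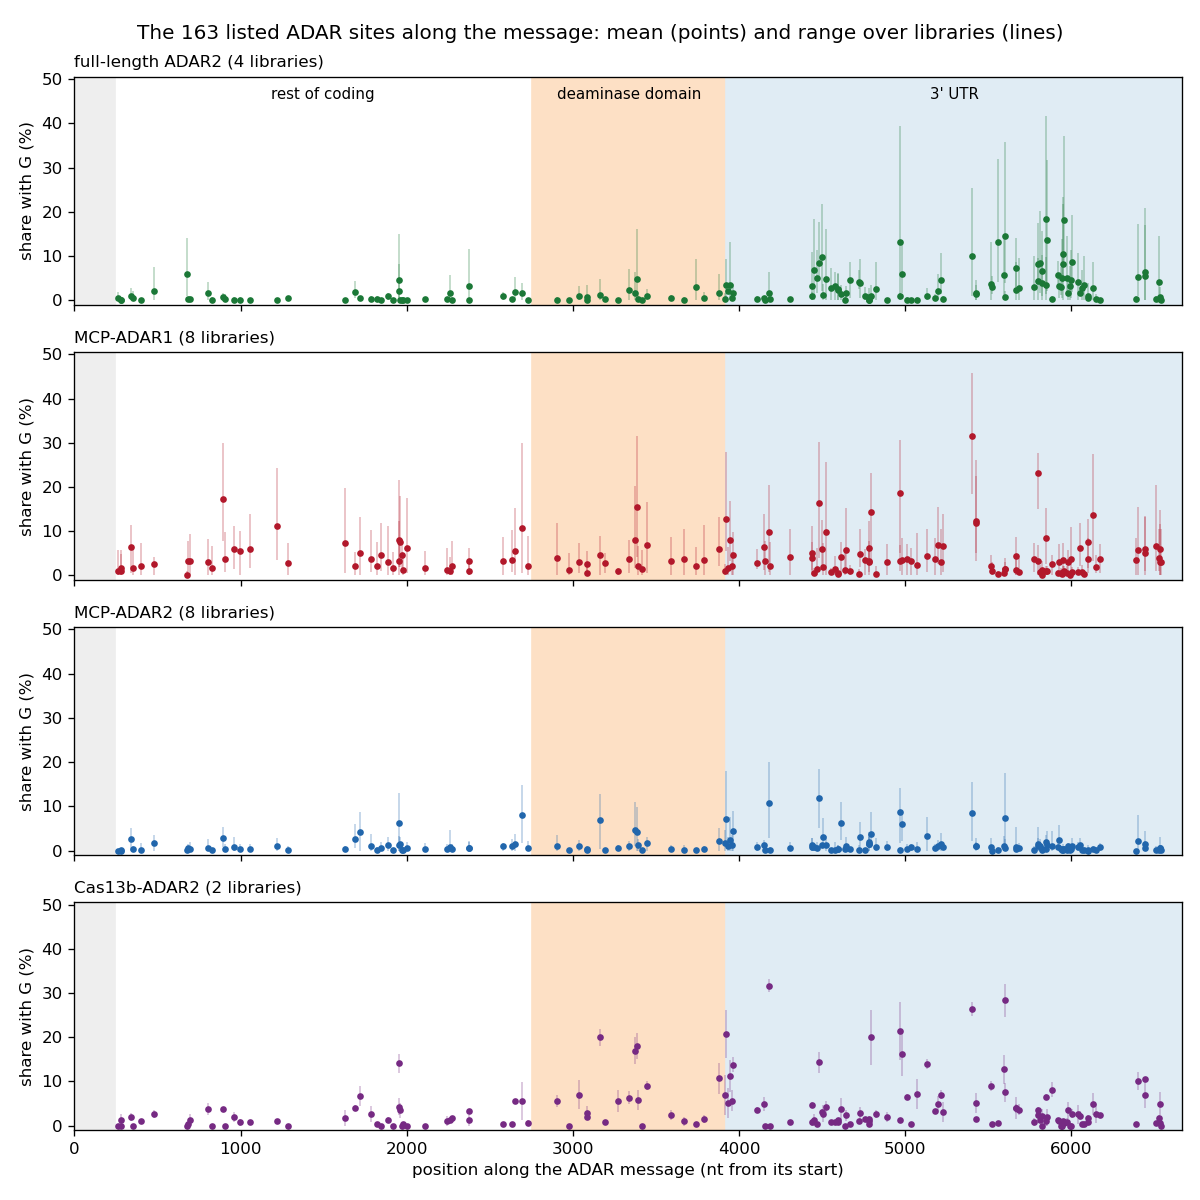
Share of reads with G (%) at the 163 listed ADAR sites against position along the message (nt), with points for the mean and lines for the range over the libraries of each construct. By the fit of the MCP libraries 93 sites were higher with ADAR1 and 3 with ADAR2, and full-length ADAR2 has its highest shares in the 3′ UTR, up to 41.7%.

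In the limma fit of the 16 MCP libraries 96 of 163 ADAR sites (58.9%) differed by enzyme at an adjusted p under 0.05, against 68.6% of all positions. Of these 93 were higher with ADAR1 and 3 were higher with ADAR2, while 66.0% and 2.60% of all positions were called in those directions. The 93 were 27 of 44 sites in the rest of the coding sequence, 14 of 21 in the deaminase domain and 52 of 98 in the 3′ UTR, and the 3 lay in the 3′ UTR. The median difference over the 163 sites was 2.06 percentage points, against 2.68 over all positions.

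The site with the highest mean share in ADAR was 154583325 in the 3′ UTR. Its shares were 18.4% to 45.9% in MCP-ADAR1 libraries (median 32.1%) and 2.05% to 15.6% in MCP-ADAR2 libraries (median 7.50%), so the groups did not overlap. The means differed by 23.0 points ± 7.96 (SD over 8 matched pairs, higher with ADAR1 in 8 of 8, adjusted p = 5.32e-06), and the site was called in 17 of 22 libraries. Site 154582927, in the first arm of the longest predicted hairpin of the UTR, had 15.0% to 27.8% in MCP-ADAR1 libraries (median 23.8%), against 0% to 5.36% in MCP-ADAR2 libraries (median 0.915%, adjusted p = 1.39e-06). These groups did not overlap either. In the coding sequence the synonymous site Q218Q had 7.89% to 30.0% in MCP-ADAR1 libraries and 0.735% to 5.22% in MCP-ADAR2 libraries (difference 14.4 points ± 6.41, 8 of 8 pairs, adjusted p = 5.23e-06). K326R in the same exon had 3.49% to 24.3% in MCP-ADAR1 libraries and 0% to 2.94% in MCP-ADAR2 libraries (adjusted p = 0.000641).

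In the deaminase domain the synonymous site Q1049Q averaged 15.5% ± 11.2 in MCP-ADAR1 libraries and 4.30% ± 3.73 in MCP-ADAR2 libraries (SD, n = 8 each, adjusted p = 0.000459). The ranges overlapped, from 4.22% to 31.6% with ADAR1 and from 0% to 9.84% with ADAR2. The adenosine of the ADAR stop codon, whose change to G gives a tryptophan codon (*1227W), was read as G at 5.49% to 28.0% in MCP-ADAR1 libraries and at 1.45% to 18.1% in MCP-ADAR2 libraries (adjusted p = 0.0334). In the reverse direction, site 154583130 of the 3′ UTR had 0% to 3.03% in MCP-ADAR1 libraries, against 0.794% to 17.6% in MCP-ADAR2 libraries. That difference of -5.89 points (ADAR1 minus ADAR2) was lower with ADAR1 in 7 of 8 pairs (adjusted p = 0.00156).

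Averaged over the sites of a part, the ADAR1 fusions gave higher shares in the domain that their own construct carries and, by a similar amount, in the 3′ UTR that it does not. The means in MCP-ADAR1 and MCP-ADAR2 libraries were 4.30% and 1.67% over the 21 domain sites (adjusted p = 0.000102), 4.01% and 1.08% over the 44 other coding sites (adjusted p = 1.62e-05), and 4.26% and 1.42% over the 98 sites of the 3′ UTR (adjusted p = 9.67e-06), each higher with ADAR1 in 8 of 8 pairs. Regions of other genes moved the same way, since 95.2% of 16373 gene parts with at least 3 listed sites were called lower with ADAR2. In a fit of the domain mean minus the 3′ UTR mean in each library (for other genes, the coding mean minus the 3′ UTR mean), the ADAR value was 0.0442 points with MCP-ADAR1 and 0.244 points with MCP-ADAR2 (difference -0.200 points, adjusted p = 0.434, 54.1% of 5095 genes called). The enzyme effect was thus not shown to differ between the domain shared with a construct and the 3′ UTR.

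The E-to-Q forms gave higher shares than wild type, and by more in the deaminase domain of ADAR than in its 3′ UTR. In the fit 50 of 163 ADAR sites (30.7%) were called by variant and all 50 were higher with E-to-Q, against 39.7% of all positions higher and 0.720% lower. They were 11 of 21 domain sites, 15 of 44 other coding sites and 24 of 98 sites in the 3′ UTR. The means with E-to-Q and wild type were 4.53% and 1.45% in the domain (adjusted p = 4.54e-05), 3.64% and 1.45% in the rest of the coding sequence (adjusted p = 0.000414), and 3.34% and 2.35% in the 3′ UTR (adjusted p = 0.0178), each higher with E-to-Q in 8 of 8 pairs, and 86.9% of gene parts were called higher. The 3′ UTR call was lost on untransformed shares (adjusted p = 0.0976). In the fit of the domain mean minus the 3′ UTR mean, the value was 1.19 points with E-to-Q and -0.901 points with wild type (adjusted p = 0.00332). Of genes, 26.4% were called. This fit pools both enzymes, and only the ADAR1 fusions carry the ADAR domain. Over the domain sites MCP-ADAR2 libraries had 0.464% to 1.06% as wild type and 1.93% to 3.01% as E488Q. Over the 3′ UTR they had 0.606% to 1.62% and 1.48% to 2.37%. The difference is thus not shown to be particular to the part shared with a construct.

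Examples of single sites with a variant difference were Q1049Q, M819V and site 154584203 of the 3′ UTR. M819V, a methionine-to-valine change 19 codons before the assumed start of the domain, averaged 15.2% with E-to-Q and 3.63% with wild type (difference 11.5 points ± 7.56, 8 of 8 pairs, adjusted p = 0.000442). Q1049Q averaged 16.2% with E-to-Q and 3.61% with wild type (adjusted p = 0.000563). Site 154584203 averaged 10.3% with E-to-Q and 0.728% with wild type (adjusted p = 0.00026). At 3′ UTR site 154583759 the averages were 19.0% with E-to-Q and 8.40% with wild type (adjusted p = 0.00017), higher in 8 of 8 pairs.

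Nuclear fusions gave lower ADAR shares than exported ones, and the guide made no difference that passed the test. In the 3′ UTR the NLS and NES libraries averaged 1.79% and 3.90% (lower with NLS in 8 of 8 pairs, adjusted p = 0.00359), in the domain 2.14% and 3.83% (7 of 8 pairs, adjusted p = 0.0102), and in the rest of the coding sequence 1.61% and 3.48% (7 of 8 pairs, adjusted p = 0.00828). Of gene parts, 71.8% were lower with NLS. At single sites 12 of 163 were called and all 12 were lower with NLS, against 3.76% of all positions. On untransformed shares 0 of 163 were called. The site with the greatest such difference, 154584549, averaged 4.84% with NLS and 15.7% with NES (difference -10.9 points ± 4.38, 8 of 8 pairs, adjusted p = 0.0205). By guide 0 of 163 ADAR sites and 0 of 22 ADARB1 sites were called, 4 and 0 of them had an unadjusted p under 0.05, and 0.000783% of all positions were called.

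Full-length ADAR2 gave its higher shares in ADAR mainly at 3′ UTR sites. By the labels, neither full-length ADAR2 nor MCP-ADAR2 carries the ADAR domain. The coding sites are thus part of the cell's own message here, as the 3′ UTR is. The mean over the 98 sites of the 3′ UTR was 0.918% and 1.37% in wild-type full-length ADAR2 without and with guide, and 3.35% and 9.33% in the E488Q form. Over the domain sites the same libraries had 0.143%, 0.294%, 0.396% and 3.61%, and over the other coding sites 0.201%, 0.382%, 0.496% and 2.23%. The E488Q library with guide was the highest in every part. In a fit of these 4 against the 8 MCP-ADAR2 libraries, added after the data were seen, 33 of 163 ADAR sites were called, 24 higher and 9 lower with full-length ADAR2, against 11.0% of all positions higher and 5.96% lower. In the 3′ UTR 23 of 98 were higher and 5 lower, while 1 of 65 coding sites was higher and 4 were lower. Without the E488Q library with guide the counts over ADAR were 14 higher and 8 lower, and without the E488Q library that had no guide they were 15 and 3. On untransformed shares 5 were higher and 0 lower. Against MCP fusions with NES alone 2 were higher and 2 lower, and against those with NLS alone 0 and 1.

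**Figure D2:**
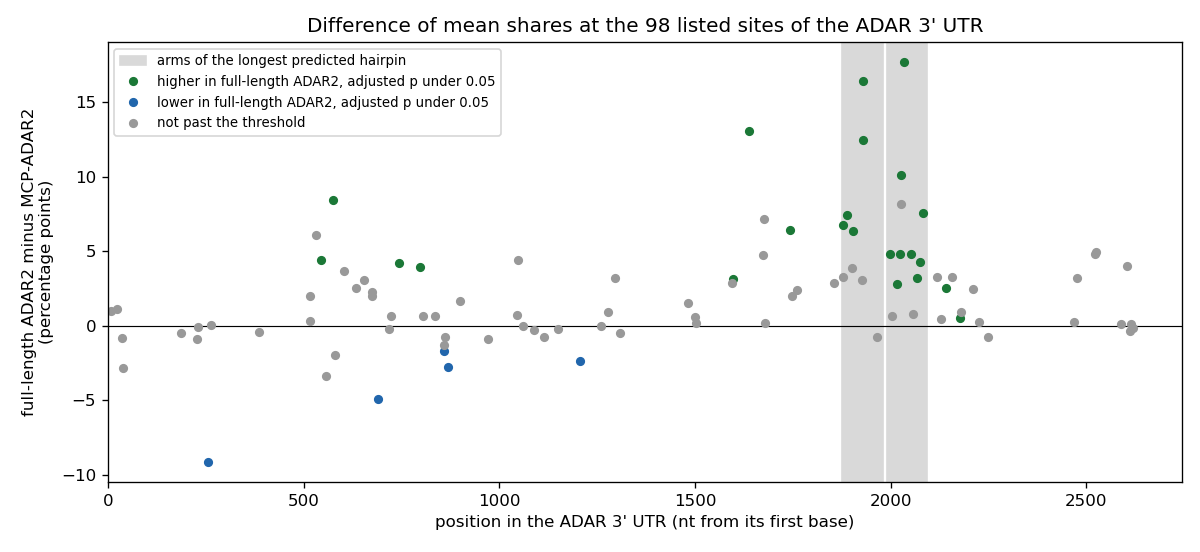
Difference in mean share (percentage points, full-length ADAR2 minus MCP-ADAR2) at the 98 listed sites of the ADAR 3′ UTR against distance from its first base (nt), with the arms of the longest predicted hairpin in grey. Inside the hairpin 14 of 21 sites passed the threshold upward and 0 downward, and outside it 9 of 77 passed upward and 5 downward. Against MCP fusions with NES or NLS alone, 1 and 0 of the 21 passed upward.

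Of the 24 ADAR sites higher with full-length ADAR2, 14 lay in 1 stretch of the 3′ UTR. The minimum free energy structure that RNAfold predicted for the 3′ UTR held 1 long hairpin of 81 base pairs spanning 218 nt, with arms at chr1:154582825-154582931 and chr1:154582714-154582815, and the next longest helices had 36 and 34 base pairs. Of 41 adenosines in it 21 were listed, against 98 of 653 in the whole UTR. The E488Q library with guide alone called 58 of the 98 sites. Some hairpin sites, 154582739 and 154582904 among them, were called in 1 of 22 deaminase libraries. Sites can thus be on the list through the library where they are high, so neither the listing nor the counts are independent support. At these 21 sites the mean share was 6.89% in the full-length libraries and 0.769% in the MCP-ADAR2 libraries, and 14 of 21 were higher with full-length ADAR2. That count was 7 without the E488Q library that had no guide, 8 without the one with guide and 3 on untransformed shares. Against MCP fusions with NES alone it was 1, and against those with NLS alone 0. These 2 fits hold fewer libraries, and 20 of 21 differences were positive in each. In the order wild type without and with guide, then E488Q without and with guide, the full-length means over these sites were 1.85%, 2.90%, 6.87% and 15.9%. At the 77 other sites the means of the 2 constructs were 2.88% and 1.60%, and 9 of 77 were higher. The full-length libraries had 0.664%, 0.950%, 2.39% and 7.53% there, in the same order. Without the E488Q library with guide, the full-length mean was 3.87% in the hairpin and 1.33% at the other sites, where it was then below that of MCP-ADAR2. The hairpin was picked out after these values were seen, so no test of the difference is given. MCP-ADAR1 libraries had means of 1.36% to 3.60% over the hairpin sites and of 1.61% to 7.53% over the others.

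The hairpin site 154582771 had 8.79% and 9.09% in wild-type full-length ADAR2 without and with guide and 17.4% and 37.2% in the E488Q form. In MCP-ADAR2 libraries it had 0% to 0.980% (median 0.431%), so the groups did not overlap (adjusted p = 0.00269). MCP-ADAR1 libraries were at 0% to 2.05%, Cas13b-ADAR2 without and with gRNA at 1.16% and 0%, and the untransfected mean was 0.475%. Nearby, 154582780 had 4.17% to 21.7% in full-length libraries, against 0% to 1.38% in MCP-ADAR2 libraries (adjusted p = 0.00731). Site 154582878, in the opposite arm, had 1.40% to 41.7% in full-length libraries and 0% to 3.51% in MCP-ADAR2 libraries, which overlapped (adjusted p = 0.0204). Outside the hairpin, 154583167 had 4.20% to 31.9% in full-length libraries and 0% to 0.735% in MCP-ADAR2 libraries (adjusted p = 0.00415). The coding site K145R was the single coding site higher with full-length ADAR2, at 1.02% to 14.1% there and 0% to 0.725% in MCP-ADAR2 libraries (adjusted p = 0.00577). These 5 sites were named after their values were seen.

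The reverse difference was found at 154584549 of the 3′ UTR, which was listed at 0 in 3 full-length libraries and at 6.50% in the E488Q library with guide, against 2.94% to 20.0% in MCP-ADAR2 libraries (adjusted p = 0.00703). K974R, the domain site lower with full-length ADAR2, was at 0 in 3 of 4 full-length libraries and at 4.90% in the fourth, against 0.457% to 12.9% in MCP-ADAR2 libraries (adjusted p = 0.03). M819V, Y493C and Q218Q were the other coding sites called lower.

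Cas13b-ADAR2 gave higher shares than all 20 other deaminase libraries at 154584549, with 33.1% and 30.3% without and with gRNA, and at K974R, with 18.0% and 21.9%. At 154583130 it had 32.0% and 24.7%, where full-length ADAR2 reached 35.7%, and at *1227W 26.1% and 15.3%, where MCP-ADAR1 reached 28.0%. Over the domain sites its means were 8.31% and 5.35%, over the other coding sites 2.35% and 1.32%, and over the 3′ UTR 5.44% and 3.40%. With 1 library of each kind, and at a different guide and carrier, these are values with no test.

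At ADARB1 the fusions of ADAR2, whose construct holds the ADARB1 domain, gave lower shares than the fusions of ADAR1 there. Over the 9 domain sites the MCP-ADAR2 libraries averaged 4.69% ± 2.67 and the MCP-ADAR1 libraries 8.45% ± 3.34 (SD, n = 8 each), a difference of -3.77 points ± 2.02 that was negative in 8 of 8 pairs (adjusted p = 0.000304). Of 16373 gene parts 95.2% were called lower with ADAR2, so the ADARB1 domain went in the common direction. With the median over sites in place of the mean, the call of the ADARB1 domain was lost (adjusted p = 0.19). Over the 12 other coding sites the averages were 1.02% and 2.54% (adjusted p = 0.059). At single sites 6 of 22 were called by enzyme (27.3%, against 68.6% of all positions). Of these 1 was higher and 5 were lower with ADAR2, while 2.60% and 66.0% of all positions were called in those directions. E-to-Q was higher than wild type over the domain sites, at 9.07% and 4.07% (8 of 8 pairs, adjusted p = 6.92e-05). Of gene parts 86.9% were called higher with E-to-Q. Single sites higher with E-to-Q were 4 of 22, all in the domain, against 39.7% of all positions. Localisation called 0 of 22 sites, against 3.76% of all positions lower with NLS, and 2 of the 22 had an unadjusted p under 0.05.

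**Figure D3:**
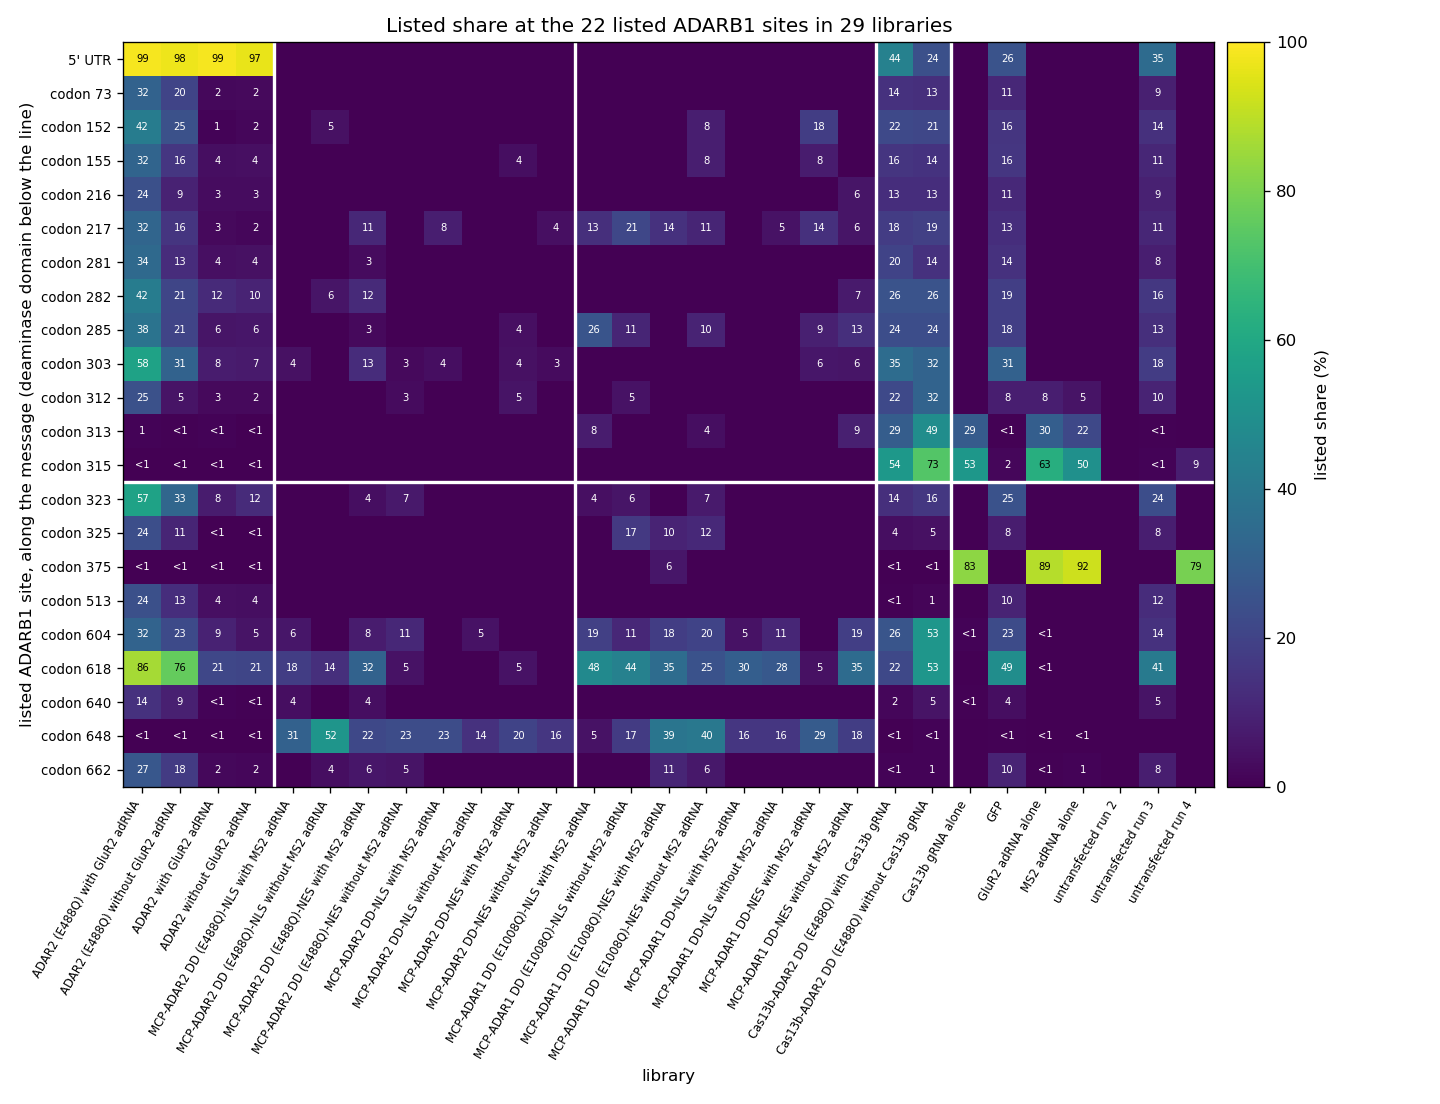
Listed share (%, colour and printed value) at the 22 listed ADARB1 sites, from the 5′ UTR at the top to codon 662 at the bottom, in 29 libraries, with white lines between constructs and at the start of the deaminase domain. Full-length ADAR2, Cas13b-ADAR2, GFP and untransfected run 3 show values along the coding sequence, and MCP libraries show them at codons 604, 618 and 648 above all.

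Most ADARB1 sites were listed at 0 in most MCP libraries, and 3 domain sites carried the means. K618R, the ADARB1 site with the highest mean share over the deaminase libraries, had 0% to 31.6% in MCP-ADAR2 libraries (median 4.88%) and 4.55% to 47.6% in MCP-ADAR1 libraries (median 32.5%). The difference was -22.0 points ± 13.3, with ADAR2 lower in 7 of 8 pairs (adjusted p = 0.000801). By variant K618R averaged 27.5% with E-to-Q and 12.8% with wild type (adjusted p = 0.0105). V604V, a synonymous site in the same exon, had 0% to 11.1% in MCP-ADAR2 libraries and 0% to 20.0% in MCP-ADAR1 libraries (adjusted p = 0.0109). L648L, a synonymous site in the last exon, had 14.3% to 52.2% in MCP-ADAR2 libraries (median 22.4%) and 4.76% to 40.0% in MCP-ADAR1 libraries (median 17.7%), and the means of 25.2% and 22.4% did not differ beyond their spread (adjusted p = 0.605). Q303R was the site higher with ADAR2, at means of 3.87% and 1.45%, in 4 of 8 pairs (adjusted p = 0.0427).

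Full-length ADAR2 libraries had higher listed shares than MCP-ADAR2 libraries along nearly the whole ADARB1 coding sequence. By the numbering of the columns, the MCP libraries follow run 2, and the full-length libraries follow run 3 and GFP. Run 2 had a mean of 0% over the ADARB1 sites, against 12.2% in run 3 and 14.3% in GFP. A difference of construct and a difference of column set therefore cannot be told apart here. In the added fit 20 of 22 ADARB1 sites were called, 19 higher and 1 lower with full-length ADAR2. Of all positions 11.0% and 5.96% were called in those directions. The higher ones include both positions that are not adenosine, described below. The E488Q library with guide alone called 18 of 22 sites, and T73T, H152R and M155V were each called in 1 of 22 deaminase libraries. Sites can thus be on the list through the full-length group itself, so the count is not independent support. The 2 sites not called were L217L (adjusted p = 0.151) and S312G (adjusted p = 0.067). On untransformed shares the counts were 7 higher and 1 lower, and without the E488Q library with guide 13 and 1. At E313G, codon 315 and T375A the means behind the call were 0.775%, 0.0780% and 0.176% in full-length libraries, with all 8 MCP-ADAR2 libraries listed at 0.

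K618R had 20.9% and 21.4% in wild-type full-length ADAR2 without and with guide and 76.4% and 86.4% in the E488Q form, against a mean of 9.14% in MCP-ADAR2 libraries (adjusted p = 0.0012). In the same column order L323L, at the start of the domain, had 12.3%, 7.53%, 33.0% and 57.5%, against 1.34% in MCP-ADAR2 libraries (adjusted p = 0.00404). Q303R, outside the domain, had 7.35%, 7.57%, 31.4% and 57.8%, against 3.87% (adjusted p = 0.0234). The E488Q libraries were above the wild-type ones at each of these sites. At the 14 other coding adenosines outside L648L, E313G and T375A the full-length mean was between 6.06% at H640R and 21.1% at K282R. The control columns with ADARB1 signal lay between them: untransfected run 3 and GFP had 41.1% and 49.2% at K618R, 23.6% and 25.2% at L323L, and 17.8% and 31.0% at Q303R. Run 2 was listed at 0 at all of them. Over the domain sites the full-length libraries averaged 5.02%, 5.13%, 20.2% and 29.6%, and over the other coding sites 3.66%, 3.81%, 14.8% and 30.1%, beside 12.6% and 14.4% in run 3 and GFP over the domain and 10.0% and 13.3% over the other coding sites. The wild-type full-length libraries were thus below both of these control columns in each part.

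L648L went the other way. It had 0.0399% to 0.213% in the full-length libraries and 0.821% and 0.281% with Cas13b-ADAR2 without and with gRNA, against 14.3% to 52.2% in MCP-ADAR2 libraries (adjusted p = 0.00118), and was listed at 0 in run 3 and at 0.455% in GFP. The groups did not overlap.

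Among the 22 ADARB1 positions 2 are not adenosine on the message. The 5′ UTR position, a T shortly before the start codon in exon 3, had 96.8% to 98.6% in the 4 full-length libraries, 24.3% and 43.8% with Cas13b-ADAR2, 35.0% in run 3 and 25.5% in GFP, and was listed at 0 in all 16 MCP libraries and in the other 5 control columns. The other, in codon 315, had 73.1% and 53.5% with Cas13b-ADAR2, 50.0% to 62.7% in the 3 guide-only libraries and 8.57% in run 4, and was at or below 0.120% in the full-length libraries. T375A, an A in the domain, had 79.5% in run 4 and 83.1% to 92.5% in the guide-only libraries, and stayed at or below 0.305% in the full-length and Cas13b libraries. In the MCP libraries it was listed at 0 except for 5.88% in MCP-ADAR1 DD (E1008Q)-NES with MS2 adRNA. What these 3 positions reflect was not tested.

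Calls in ADARB1 numbered 1, 2, 4 and 18 of 22 in the full-length libraries, 0 or 1 in MCP-ADAR2 libraries, 0 to 2 in MCP-ADAR1 libraries, and 9 and 7 with Cas13b-ADAR2 without and with gRNA, beside the shares of all positions given above for the same libraries. Of 22 sites 21 were called in at least 1 deaminase library, all but T375A, and 0 in 11 or more. The control columns had 10 calls in ADARB1. These were 1 in run 3 (0.000261% of all positions called), 2 in GFP (0.00157%), 1 in run 4 (0.00104%), and 2 each with MS2 adRNA (0.00366%), GluR2 adRNA (0.00470%) and Cas13b gRNA (0.00601%). Over the 12 coding sites outside the domain Cas13b-ADAR2 averaged 27.5% and 24.4%, and over the domain sites 15.0% and 7.70%.

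**Figure D4:**
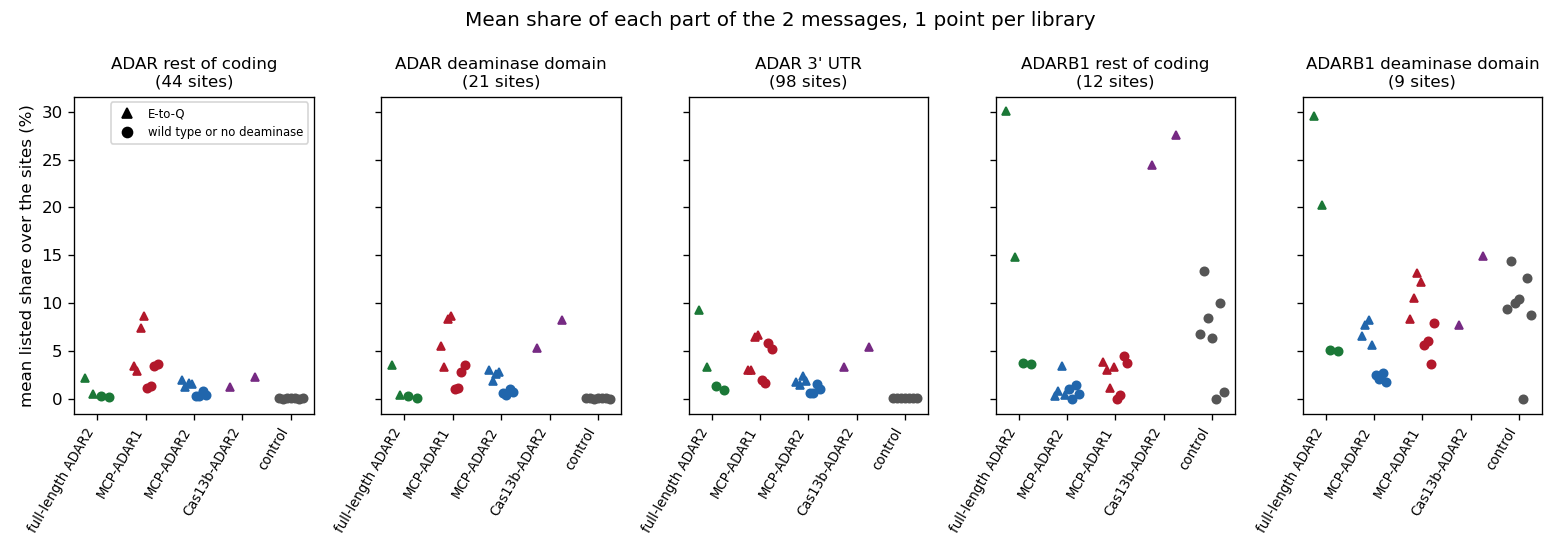
Mean listed share (%) over the listed sites of each part of ADAR and ADARB1, with 1 point per library, triangles for E-to-Q and circles for wild type or no deaminase. The controls lie at or below 0.171% in the 3 ADAR panels and reach 13.3% and 14.4% in the ADARB1 panels.

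The bases beside the listed adenosines differed from those of the whole message. The list holds positions called in deaminase libraries, and the same values over all listed positions were not taken. The difference is thus not shown to be particular to these genes. A U stood 5′ of 22.4% of the ADAR sites in the 3′ UTR, of 23.8% in the domain and of 27.3% in the rest of the coding sequence, against 13.0% of all 1732 adenosines of the ADAR message. A G stood 5′ of 12.2%, 0% and 9.09% of them, against 27.5%, and a G stood 3′ of 62.2%, 47.6% and 56.8%, against 32.6%. In the long hairpin a G stood 5′ of 6 of 21 sites (28.6%), near the value of the whole message. A U stood 5′ of 1 of 21 (4.76%), below that of the message. Of the 21 domain sites of ADAR 13 change the encoded residue, 7 are synonymous and 1 is the stop codon. Outside the domain 29 of 44 change it. In ADARB1 6 of 9 domain sites and 9 of 11 adenosine sites outside the domain change it.

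Across the 22 deaminase libraries the mean share of the ADAR domain followed that of most genes. Its Spearman correlation was highest with GNL2 (0.988), RUVBL2 and TEX261 (0.981 each) among 7245 genes with at least 10 listed sites, whose median was 0.853. For the ADARB1 domain the highest were HOXC10 (0.923), DYRK1B (0.916) and CCND2 (0.909), with a median of 0.67. The libraries differ in overall editing, which all genes share, so these are descriptions of likeness.

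Other deaminase family genes, transport and turnover factors of the ADARs, and sensors of double-stranded RNA held 549 listed sites in 12 genes, of which 343 (62.5%) were higher with ADAR1 and 23 higher with ADAR2, against 66.0% and 2.60% of all positions. The family genes had 19 sites, 17 of them in ADAT3, a subunit of the tRNA adenosine deaminase. Of these 19, 14 were higher with ADAR1 and 1 with ADAR2. TNPO1, an importer of ADAR1, had 144 sites, 114 higher with ADAR1 and 2 with ADAR2. Of the sensors EIF2AK2, the kinase PKR, had 24 of 53 higher with ADAR1 and MAVS, an adaptor of RNA sensing, had 14 of 40, while IFIH1, OAS1, OAS2, OAS3 and ZBP1 had 0 listed sites.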

How the data were processed

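The authors deposited, per the file headers, a table with a fraction (share) of reads at each site and library and a table of adjusted p-values. The headers do not name the base counted, which was taken as G at adenosines. Depth per sample is unknown, so shares have no counting interval, and how sites were chosen is not given in the sources used here. Per the submitters' processing notes, reads went through bcl2fastq 2.18.0.12, STAR 2.6.0c and SAMtools on GRCh38.p12. The shares of 1 column carry no sample name. They were not used, so untransfected run 1 was not analysed here. The untransfected runs were taken as technical repeats of 1 library.

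The members, parts and lists were chosen with earlier results of these data known. Sites were placed on exons of GENCODE release 29. Shares were arcsine square root transformed and fitted at all 382978 sites with limma 3.58.1 (R 4.3.3, intensity trend) on enzyme, variant, localisation and guide in 16 libraries (11 residual degrees of freedom), with Benjamini-Hochberg adjustment over all sites and a threshold of 0.05. The same fit was run on 16373 gene parts with at least 3 sites and on the coding (for ADAR, the domain) minus 3′ UTR mean of 5095 genes. No test had been planned for full-length ADAR2, since its 4 libraries were judged too few, and a fit of carrier, variant and guide in 12 libraries was added after the data were seen. The script was tested on simulated data. The named sites are the 5 with the highest mean share per gene and part and those with the greatest called effects per factor, up to 5 in each direction by enzyme and 3 by the other factors. RNA structure came from RNAfold (ViennaRNA 2.7.2), and other values from Python 3.11.15 with numpy 2.4.6 and pandas 2.3.3. The alternatives tried were the scale of the shares, the variance model, an interaction term, subsets of libraries, the start of the domain, the calling threshold and the untransfected runs used. One item of the list of related genes is not reported here.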

Additional observations from a re-analysis of the deposited data

Results flagged for a closer look

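Control libraries outside the construct comparisons showed signal at ADARB1. In the GFP library 6 ADARB1 sites stood more than 5 points above the highest untransfected run, in the MS2 adRNA library 3, in the GluR2 adRNA library 3 and in the Cas13b gRNA library 2. The source was not tested. At ADAR D462G (site 154601257, chosen after its value was seen) the effect of E-to-Q differed between the enzymes by -0.204 on the arcsine scale (ADAR2 minus ADAR1, limma interaction, adjusted p = 0.0228). With ADAR1 fusions it averaged 13.5% ± 5.91 for E-to-Q and 1.38% ± 0.983 for wild type, and with ADAR2 fusions 0.692% ± 0.521 for E-to-Q and 0.116% ± 0.233 for wild type (SD, n = 4 libraries each).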

How the results depend on the processing

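Of the alternatives to the results that answer a comparison, 484 kept direction and side of the threshold or stayed within the spread or within 1.5 times the count. On subsets of the libraries the counts by enzyme were 20 with NLS alone, 43 without guide and 51 with guide for ADAR (96 in all 16), and 1 with NES, 1 with NLS, 3 without guide and 0 with guide for ADARB1 (6). By variant they were 13, 19, 0 and 8 for ADAR with NES, NLS, no guide and guide (50), and 1, 1, 0 and 1 for ADARB1 (4). By localisation ADAR had 0 on untransformed shares and 0 in either guide subset (12). The subsets hold fewer libraries. For full-length against MCP-ADAR2 the counts were 5 and 8 for ADAR and ADARB1 on untransformed shares, 4 and 9 with NES fusions alone and 1 and 3 with NLS fusions alone (33 and 20). They were 18 to 32 and 14 to 20 with each full-length library left out. The variant effect on the ADAR 3′ UTR missed the threshold on untransformed shares (0.991 points), by the median (0.287) and with NES alone (0.893). The enzyme effect on the ADARB1 domain missed it by the median (-1.79). The ADARB1 coding sites outside the domain passed by enzyme on untransformed shares or with at least 5 sites a part (-1.52), and with the domain from 120 (-1.70) or 200 residues before the glutamate (-2.32). By localisation they passed with at least 5 sites (-1.16) and from 120 residues (-1.11). By variant they passed with NLS alone (1.69) and from 120 residues (1.11), and reversed by the median (-0.347) and with NES alone (-0.480). The cause was not tested. Leaving out each matched pair in turn gave, for enzyme, 2.55 to 3.10 points in the ADAR 3′ UTR, 2.17 to 2.96 in its domain and -4.17 to -3.37 in the ADARB1 domain. No paired analysis was possible because each condition had 1 library, so that replicate numbers pair no samples, and the matched pairs here are pairs of conditions. Unknown depth limits every share listed at 0.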
